A study of Mus musculus with 16 samples.

Results

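The Gata2 locus was taken as the 183.142 kb on mouse chromosome 6 from 120 kb upstream of the distal Gata2 start to 50 kb past the end of the gene (chr6:88073891-88257032, GRCm38). ATAC-Seq peaks, intervals in which the transposase Tn5 cut chromatin more often than in the surroundings, were collected there from 16 libraries. The files held 537 peaks in this interval, of 1256686 on chromosomes 1 to 19, X and Y. They merged into 66 regions. Within them, 7 sites were followed by the names the field gives them, from their distance in kb to the distal start: -77, -48, -3.9, -2.8, -1.8, the promoter and +9.5. Gata2 (ENSMUSG00000015053.14) lies on the plus strand at chr6:88193891-88207032 and has 6 exons, of which 5 carry 1440 coding bases.

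The study compared normal GATA2 with a pathogenic GATA2 variant that carries an insertion of 9 amino acids between its zinc fingers (9aa-Ins). All libraries came from fetal liver hematopoietic progenitors of mice that were immortalized with an estrogen-regulated HoxB8, grown with β-estradiol and infected with a retrovirus for 3 d before sorting. The methods add that G418 was present and that the vector encodes GFP. Each of 4 groups had 4 libraries: hi-77+/+ empty (enhancer intact, empty vector), hi-77-/- empty (both copies of the -77 enhancer deleted, empty vector), hi-77-/- GATA2, and lastly hi-77-/- 9aa-Ins (the latter pair deleted, with a vector that encodes mouse Gata2 or the variant). The labels name no separate cell lines, mice or cultures within a genotype. A difference between genotypes therefore cannot be told apart from a difference between immortalized lines, and p-values measure the spread between these libraries, which the study calls biological replicates.

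GATA2 is a zinc finger transcription factor that binds the motif WGATAR and is needed to form and maintain hematopoietic stem and progenitor cells. Its own gene is controlled by scattered elements, among them the -77 enhancer, which acts in myeloid progenitors, and the intronic +9.5 enhancer, which acts in stem cell emergence and joins an E-box to a GATA motif. Loss-of-function variants of human GATA2 cause immunodeficiency and leukemia, and the protein can occupy its own gene.

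The sequences below are the stretches on which the results turn. The first is the longer stretch of the -77 site in peaks of all hi-77+/+ libraries and of no hi-77-/- library (chr6:88116444-88116727). The shorter, of 59 bases (chr6:88117581-88117639), is not printed. The next sequence lies around the hi-77+/+ summits of the same site (chr6:88116893-88117192). The others are 300 bases around the median summit of the -48 site (chr6:88145897-88146196), the -3.9 site (chr6:88189601-88189900), the +9.5 site (chr6:88203078-88203377) and a region at +58.5 kb (chr6:88252158-88252457). The +58.5 kb region was chosen as the one outside the coding exons most above hi-77-/- empty with GATA2. All sequences are from the plus strand of GRCm38. Capitals mark GATA motifs on either strand (the motif AGATAA, or AGATAG in its other form, likewise the motif TGATAA, or TGATAG) and, where an E-box (CANNTG) precedes a GATA motif by 6 to 14 bases, that E-box.
-77 stretch: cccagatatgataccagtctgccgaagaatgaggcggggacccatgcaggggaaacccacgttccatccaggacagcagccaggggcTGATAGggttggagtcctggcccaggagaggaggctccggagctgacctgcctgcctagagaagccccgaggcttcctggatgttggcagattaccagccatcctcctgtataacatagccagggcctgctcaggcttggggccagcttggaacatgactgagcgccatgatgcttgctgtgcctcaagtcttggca
-77 core: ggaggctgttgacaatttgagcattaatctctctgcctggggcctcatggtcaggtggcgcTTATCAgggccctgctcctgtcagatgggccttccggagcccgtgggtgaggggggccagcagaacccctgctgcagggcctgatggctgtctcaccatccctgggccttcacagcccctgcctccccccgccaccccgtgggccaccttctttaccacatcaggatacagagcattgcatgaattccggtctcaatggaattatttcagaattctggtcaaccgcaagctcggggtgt
-48 site: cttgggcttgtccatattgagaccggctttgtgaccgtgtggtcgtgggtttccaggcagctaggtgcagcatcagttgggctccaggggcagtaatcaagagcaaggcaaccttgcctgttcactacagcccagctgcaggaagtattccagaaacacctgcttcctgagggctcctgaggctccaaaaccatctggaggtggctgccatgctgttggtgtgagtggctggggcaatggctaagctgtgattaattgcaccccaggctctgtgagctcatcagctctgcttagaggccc
-3.9 site: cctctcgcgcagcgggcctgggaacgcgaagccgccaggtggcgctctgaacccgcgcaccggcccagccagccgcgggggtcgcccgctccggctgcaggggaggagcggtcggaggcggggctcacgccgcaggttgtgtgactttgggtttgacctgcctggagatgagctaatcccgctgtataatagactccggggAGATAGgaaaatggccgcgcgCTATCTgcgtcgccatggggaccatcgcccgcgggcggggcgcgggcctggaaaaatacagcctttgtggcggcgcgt
+9.5 site: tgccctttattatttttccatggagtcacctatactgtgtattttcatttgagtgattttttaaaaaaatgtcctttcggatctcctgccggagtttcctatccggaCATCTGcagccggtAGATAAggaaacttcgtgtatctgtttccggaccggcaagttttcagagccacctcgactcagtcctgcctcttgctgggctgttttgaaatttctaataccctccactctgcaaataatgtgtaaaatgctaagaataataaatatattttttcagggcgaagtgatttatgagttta
+58.5 region: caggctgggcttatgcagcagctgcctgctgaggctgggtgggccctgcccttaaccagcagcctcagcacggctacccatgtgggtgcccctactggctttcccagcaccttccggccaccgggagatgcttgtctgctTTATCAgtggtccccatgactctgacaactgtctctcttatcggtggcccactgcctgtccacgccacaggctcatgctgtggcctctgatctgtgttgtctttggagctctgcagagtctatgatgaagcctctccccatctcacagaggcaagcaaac

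Of these, the +9.5 window alone held an E-box followed at this spacing by a GATA motif, CATCTGCAGCCGGTAGATAA at chr6:88203185-88203204, with a spacer of 8 bases. Such a composite was found in 2.76% of windows of 300 bases centred on the 92574 regions of the whole series. The -3.9 window held 2 GATA motifs on opposite strands, the +58.5 window 1 and the -77 core 1, against at least 1 in 36.5% of regions at that length. No GATA motif was found in the -48 window, although it held 4 E-boxes, against at least 1 E-box in 79.3% of regions at that length. The 284-base stretch of the -77 site held 1 GATA motif, TGATAG, against 34.9% of regions at its length. The 25 regions of the locus described below differ in length. At those lengths, 29.9% to 98.8% of regions of the series held a GATA motif and 2.27% to 24.1% a composite. Of the 25, 9 held a GATA motif and 3 a composite. Besides the +9.5 region these were at -86.7 kb (CAGATGCATGCAAACTGATAA, minus strand, chr6:88108647-88108667) and at +60.3 kb (CAGCTGGGGCCCCTGATAA, minus strand, chr6:88254192-88254210). These matches are letters in the reference and were not tested as binding sites.

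Libraries differed in the number of peaks called, from 50195 to 112267, and the number of reads behind them is unknown. For this reason each list was cut to its 49925 most significant peaks, and a site was given a rank score: 100 for the most significant peak of a library, 0 where none of these peaks touched the site. Peaks with the same -log10 p shared their mean rank. A window of 500 bp to each side of the nominal position was used for each named site. A difference was called where the 4 libraries of one group lay entirely above or below the 4 of the other, for which a two-sided exact permutation test gives p = 0.0286, the smallest possible. The score was also fitted with limma across 77282 windows of 1 kb, and its p-values were adjusted over all of them. Median rank scores of all chromosome 6 peaks lay between 39.9 and 51.5 in the 16 libraries. The progenitor label was checked at promoters: Kit, Ptprc, Myb, Runx1, Cd34 and Flt3 had peaks in 16 of 16 libraries, Spi1 in 15 and Hoxa9 in 0. None of the promoters of Cd3e, Cd3g, Cd4, Pax5, Alb, Afp, Ttr, Cdh5, Kdr and Hbb-bs had one, but peaks were present at Cd79a in 11, Epor in 12 and Pecam1 in 14 libraries. Cd79a, a part of the B cell receptor, averaged 16.4 in hi-77+/+ empty, 58.6 in hi-77-/- empty, 0 with GATA2 and 43.6 with 9aa-Ins. The part of such differences in cell state in the results below was not tested.

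The -77 site checks the genotype labels. It had a rank score of 93.7, 92.8, 90.8 and 89.6 in the hi-77+/+ empty libraries. In hi-77-/- empty it was 0, 0, 0 and 42.9, with GATA2 0, 3.56, 0 and 13.7, and with 9aa-Ins 0, 0, 3.88 and 8.39. All 12 deleted libraries thus lay below all 4 intact ones. The mean was 91.7 ± 1.86 (SD, n = 4) in hi-77+/+ empty and 10.7 ± 21.4 in hi-77-/- empty, a difference of -81.0 (SE 7.69, limma adjusted p = 2.64e-06). The deletion that defines the genotype fixed this separation, so the p-value does no more than check the labels. In the intact libraries the -77 site ranked between 2995 and 4979 within its list and had the highest mean of the 7 sites. In the lists as deposited, MACS2 gave it a fold enrichment of 22.3 to 28.1 there and of 4.75 to 9 in hi-77-/- empty.

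**Figure D1:**
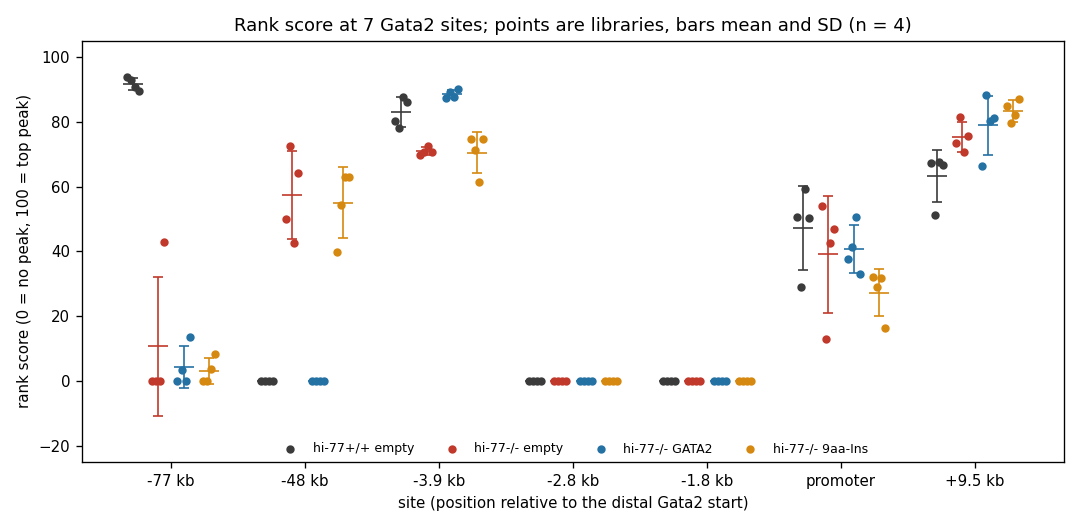
Rank scores (vertical axis, 0 for no peak and 100 for the top peak of a library) at the 7 Gata2 sites (horizontal axis). Points are libraries, and bars show the mean and SD of the 4 libraries of a group. The -77 site is near 90 only in hi-77+/+ empty, and the -48 site is above 0 only in the deleted cells with empty vector or 9aa-Ins.

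Weak peaks remained at the -77 site in deleted cells. Before lists were cut to equal length, one was called in 4 of 4 hi-77-/- empty, 2 of 4 GATA2 and 4 of 4 9aa-Ins libraries. The intact peaks were 1196 to 1414 bp wide and shared the 1196 bp of chr6:88116444-88117639. The deleted peaks all fell within chr6:88116728-88117580, so that their left limit was the right end of the 284-base stretch printed above. Beyond their right limit, the intact peaks shared 59 bases more (chr6:88117581-88117639). In each deleted library with such peaks, at least 1 overlapped the RefSeq enhancer Gata2R1 (chr6:88116825-88117383), a tested fragment of this element. The labels do not give the ends of the deletion. DNA that is missing gives no reads, so a loss of DNA and a loss of accessibility cannot be told apart in these stretches. Peaks were still called between the stretches, and the best of each deleted library had its summit between -76.972 and -76.517 kb. Beyond the summit, peak intervals do not show which bases under them were read. No deleted library had a peak in a separate interval, at -79.4 kb (chr6:88114233-88114764), where 4 of 4 intact libraries had one before the cut and 3 of 4 after it. This interval was singled out after its values were seen.

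**Figure D2:**
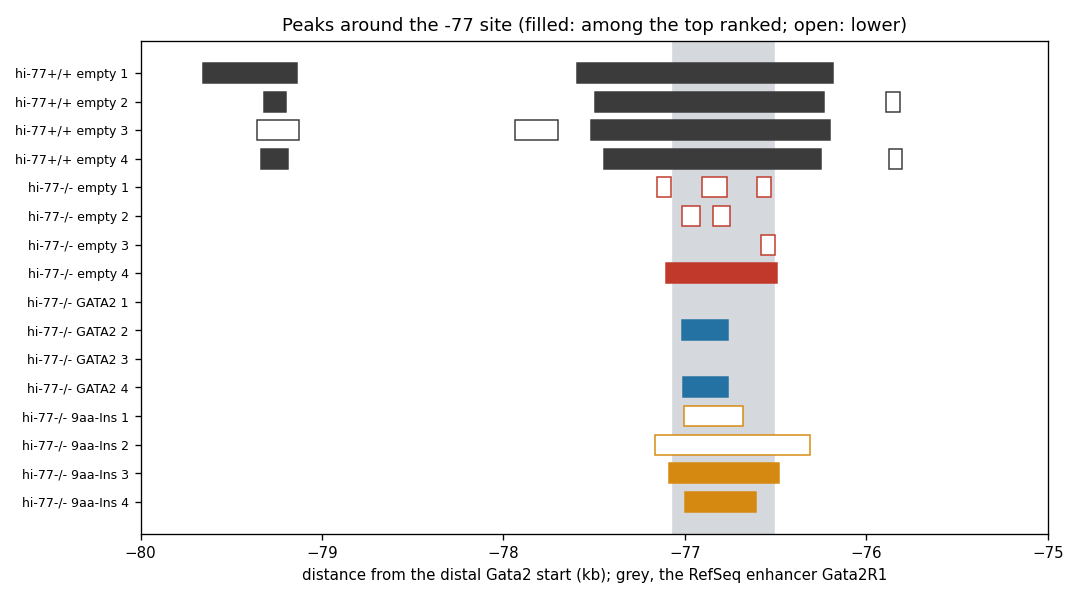
Peaks of each library (rows) around the -77 site (horizontal axis, distance in kb from the distal Gata2 start). Filled bars are among the 49925 most significant peaks of the library and open bars are lower; grey marks the RefSeq enhancer Gata2R1. Peaks of 1196 to 1414 bp stand in the hi-77+/+ empty rows, and shorter peaks, mostly over the grey band, in 10 of the 12 hi-77-/- rows.

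Across the named sites, hi-77-/- empty and hi-77+/+ empty did not overlap at 4 of 7 (-77, -48, -3.9 and +9.5), beside 22.1% of the 92581 windows of the series. By limma, 3 of the 5 sites that entered the fit were called, beside 29.8% of windows. Both counts include the -77 site, whose separation was fixed by the deletion that defines the genotype. GATA2 against empty vector in deleted cells gave 2 of 7 without overlap (-48 and -3.9, beside 14.2%), and both were called by limma (beside 15.8%). 9aa-Ins against empty vector gave 0 of 7 (beside 8.76%) by the exact permutation test, with limma also calling 0 of 5 (beside 5.56%), and none of the 5 had an unadjusted p under 0.05. The variant against GATA2 gave 3 of 7 without overlap (-48, -3.9 and the promoter, beside 17.1%) and 2 of 5 by limma (beside 18.8%). The comparisons with hi-77-/- empty share those 4 libraries.

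At the -48 site the genotypes lay the other way round. Its scores were 0 in all 4 hi-77+/+ empty libraries, 50.1, 72.5, 42.5 and 64.2 in hi-77-/- empty, 0 in all 4 GATA2 libraries, and 39.9, 54.3, 63 and 63 with 9aa-Ins. The site was therefore among the top peaks of every deleted library without GATA2 and of no library of the other groups. The deletion difference was 57.3 (SE 5.93, limma adjusted p = 6.14e-06), and with GATA2 the score fell by 57.3 (adjusted p = 8.55e-06). With 9aa-Ins the difference from empty vector was -2.25 (adjusted p = 1), and the variant exceeded GATA2 by 55.1 (adjusted p = 1.32e-05). Below the cut, faint peaks were listed in 2 of 4 hi-77+/+ empty libraries and 1 of 4 GATA2 libraries. When lists were cut to 24962 peaks, scores at -48 overlapped at 0 and these 3 calls were lost, with differences of 18.9, -18.9 and 15.2. The interval is intergenic (chr6:88145840-88146260).

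Peaks at the -3.9 site, an element just upstream of the distal promoter within an exon of the noncoding gene Gm38708, were present in 16 of 16 libraries. They scored 80.3, 78, 87.6 and 86.2 in hi-77+/+ empty and 69.8, 70.8, 72.5 and 70.6 in hi-77-/- empty. With GATA2 they scored 87.4, 89.1, 87.6 and 90, and with 9aa-Ins 74.7, 71.2, 61.3 and 74.7. The deleted groups with empty vector and 9aa-Ins lay below the other two groups without overlap. The score fell by 12.1 with the deletion (SE 3.02, limma adjusted p = 0.00757) and was 17.6 higher with GATA2 than with empty vector (adjusted p = 8.23e-04). The variant differed from empty vector by -0.421 (adjusted p = 1) and from GATA2 by -18.0 (adjusted p = 6.26e-04). The last difference was -7.04 and the groups overlapped when all deposited peaks were ranked. Peak summits lay near -4.1 kb, within the RefSeq enhancer Gata2R8 (chr6:88189623-88190022).

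No library had a peak in the -2.8 window, and 1 hi-77+/+ empty library had a faint one in the -1.8 window before the cut (-log10 p of 3.78). The RefSeq enhancer Gata2R7 at the -1.8 site (chr6:88191782-88192013) and Gata2R6 at about +25.4 kb (chr6:88218972-88219506) held no peak in any library. These elements are thus below detection by the peak caller here, which does not show that they were closed.

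Intron 4 carries the +9.5 site, which matches the RefSeq enhancer Gata2R5 (chr6:88202909-88203453) and had a peak in 16 of 16 libraries. Its scores were 67.4, 51.2, 67.6 and 66.7 in hi-77+/+ empty and 73.4, 81.6, 70.7 and 75.6 in hi-77-/- empty. With GATA2 they were 66.4, 88.2, 80.1 and 81, and with 9aa-Ins 84.8, 79.5, 82 and 87. The 2 empty-vector groups, hi-77-/- empty and hi-77+/+ empty, did not overlap (difference 12.1, exact permutation p = 0.0286), but limma's adjusted p was 0.0679. Their difference was 2.46 with overlap when all deposited peaks were ranked. GATA2 and empty vector overlapped (3.6, exact permutation p = 0.543). The variant was 8.03 above empty vector with 1 overlapping pair of libraries (exact permutation p = 0.0571, limma adjusted p = 0.492). That comparison passed without overlap with all deposited peaks (8.75) or only peaks under 1 kb (9.68), and when either hi-77-/- empty replicate 2 (10.1) or 9aa-Ins replicate 2 (9.32) was left out.

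The distal promoter, where an annotated Gata2 transcript starts, had a peak in every library at moderate rank. Its scores were 50.7, 28.9, 59.1 and 50.4 in hi-77+/+ empty, 54, 13, 42.5 and 46.8 in hi-77-/- empty, 37.7, 41.5, 50.6 and 33.1 with GATA2, and 32, 29, 31.7 and 16.5 with 9aa-Ins. No difference at the promoter was called by limma (adjusted p = 0.513 between genotypes, 1 with GATA2 and 0.624 with 9aa-Ins). 9aa-Ins lay below GATA2 without overlap (-13.4, exact permutation p = 0.0286, limma adjusted p = 0.324), but the difference was 6.68 in the other direction when all deposited peaks were ranked. Between genotypes the difference was -8.2 with overlap, -15.1 without overlap when all deposited peaks were ranked (exact permutation p = 0.0286), 7.58 with peaks under 1 kb and 0.481 without hi-77-/- empty replicate 2. The proximal promoter, 4.44 kb downstream, is the start of the other Gata2 transcript. The region over it scored 69.8, 64.6, 79.2 and 63.4 in hi-77+/+ empty and 50.1, 37.6, 51.5 and 50.2 in hi-77-/- empty. These groups did not overlap (difference -21.9, exact permutation p = 0.0286), with values of 44.7, 59.3, 76.2 and 65 in the GATA2 and 49.2, 33.3, 19.7 and 53.4 in the 9aa-Ins libraries.

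Beyond the named sites, all regions of the locus were scored over their own extent. Of the 66 regions, 25 had a peak in at least 4 libraries after the lists were cut to equal length, and the other 41 in 0 to 3. Of the 25, 4 overlapped coding exons of Gata2 and are treated separately. The remaining 21 include 5 that hold the -77, -48, -3.9, promoter and +9.5 sites. The deletion separated 12 of the 21 (57.1%), 6 higher and 6 lower in hi-77-/- empty, beside 32.7% of the 58077 regions of the series with a peak in at least 4 libraries. The 12 include the region of the deleted -77 enhancer itself. GATA2 separated 6 (28.6%, beside 20.9%), with 3 higher and 3 lower. 9aa-Ins separated 2 (9.52%, beside 13.0%), and 9aa-Ins and GATA2 differed at 8 (38.1%, beside 25.2%). The median difference over the 21 regions was -1.37, 1.66, -0.421 and -3.88 in these comparisons, beside 0, 0, 0 and 0.283 over all such regions. A region that entered only through the group in which it was high had to differ. This holds for the region at +58.5 kb, which had peaks in 4 GATA2 libraries and 1 hi-77+/+ empty library. It is counted among the 6 and among the 8, where its separation is no evidence.

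**Figure D3:**
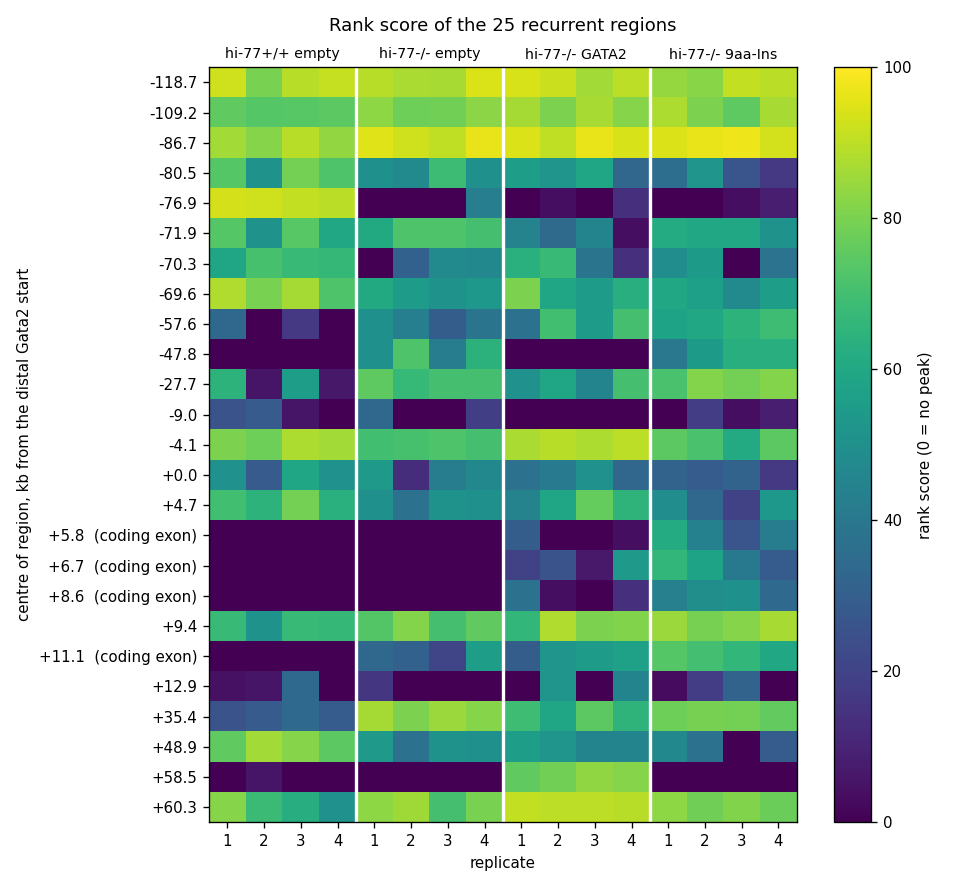
Rank scores (color, 0 for no peak) of the 25 regions with a peak in at least 4 libraries, ordered by distance from the distal Gata2 start (rows), in the 4 replicates of each group (columns). The rows at -76.9, -47.8, +35.4 and +58.5 kb change color between groups, and the 4 coding exon rows are filled mainly in the last pair of groups.

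Downstream of Gata2, intronic regions of the neighboring gene Dnajb8, which encodes a heat shock cochaperone, separated in at least 1 comparison each. At +35.4 kb (chr6:88228785-88229821) a peak was present in all libraries. Its scores were 25.4, 28.9, 34.3 and 29.2 in hi-77+/+ empty, 86.4, 80.4, 84.8 and 81.9 in hi-77-/- empty, 69, 59.3, 74.7 and 65 with GATA2, and 77.8, 79.5, 79.2 and 75.8 with 9aa-Ins. All 4 groups were apart: the difference from empty vector was -16.3 with GATA2 and -5.32 with 9aa-Ins, hi-77-/- empty exceeded hi-77+/+ empty by 53.9, and the variant exceeded GATA2 by 11.0 (exact permutation p = 0.0286 for each). With GATA2 the level remained above that of hi-77+/+ empty. This region held no GATA motif, against at least 1 in 78.1% of regions at its length of 1037 bp.

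The region at +58.5 kb (chr6:88251817-88252952) was high with GATA2 alone. Its scores were 75.4, 78.9, 83.3 and 81.9 in the GATA2 libraries, 0 in all 4 hi-77-/- empty and all 4 9aa-Ins libraries, and 0, 5.47, 0 and 0 in hi-77+/+ empty. Before the cut, faint peaks were listed there in 3 hi-77+/+ empty, 1 hi-77-/- empty and 1 9aa-Ins library. It held 3 GATA motifs and 14 E-boxes in 1136 bp but no composite. At that length 81.1% of regions held a GATA motif, 99.3% an E-box and 9.18% a composite. An adjacent region at the 3' end of Dnajb8 (+60.3 kb, chr6:88253839-88254553) was present in all libraries and ranged from 89.3 to 90.8 with GATA2, above hi-77-/- empty (70.7 to 85.6) and 9aa-Ins (77.7 to 83.2). The region nearer to Gata2 at +48.9 kb was higher in hi-77+/+ empty (74.9 to 86) than in hi-77-/- empty (37.6 to 54), with 49.5 ± 5.11 (SD, n = 4) after GATA2 and 28.2 ± 20.1 after 9aa-Ins. No peak at the Dnajb8 start itself, 28.4 kb from that of Gata2, recurred in 4 libraries.

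Further regions lay between the -77 and -48 sites, with another nearer to Gata2 at -27.7 kb. At -69.6 kb hi-77-/- empty scored 51.5 to 60.6 and hi-77+/+ empty 72.4 to 88.1, and at -70.3 kb 0 to 47.3 and 58.7 to 70.9, without overlap at either. GATA2 did not separate from empty vector at these regions (9.25, exact permutation p = 0.114, and 14.4, p = 0.429). At -71.9 kb the genotypes overlapped, but GATA2 libraries (44.7, 34.4, 45.2 and 3.83) lay below hi-77-/- empty (60.6, 72.5, 72.5 and 70.6) and 9aa-Ins (61.7, 60, 59.4 and 51). The region at -57.6 kb was the only 1 of the 21 that was higher with 9aa-Ins than with empty vector without overlap. It scored 58.2, 60, 64.7 and 68.9 with the variant and 50.1, 43.1, 29.6 and 38.3 with empty vector (exact permutation p = 0.0286), while GATA2 libraries (37.7, 69.6, 55.1 and 70.7) overlapped both. At -27.7 kb hi-77+/+ empty scored 64.8, 5.47, 55.5 and 6.47, below the 67.1 to 75 of hi-77-/- empty, and 9aa-Ins (71.4 to 81.4) exceeded GATA2 (45.2 to 70.7).

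Toward the far end of the interval, the promoter of Rpn1, which encodes a subunit of the oligosaccharyltransferase complex, had a peak in all libraries. Its scores were 73.5 to 75.6 in hi-77+/+ empty, 78.1 to 83.2 in hi-77-/- empty, 80.2 to 86.9 with GATA2 and 75.1 to 87.7 with 9aa-Ins, and the deletion difference was 6.13 without overlap. The broad region at -86.7 kb (chr6:88105611-88108790) had a deletion difference of 8.51 without overlap, from 85.3 ± 3.31 (SD, n = 4) to 93.8 ± 2.71. By contrast, all groups overlapped at -118.7 kb, where scores ranged from 80 to 94.2. The same held at -80.5 kb, a region of all 16 libraries that averaged 69.2, 54.2, 49.9 and 32.7 in the 4 groups, in the order intact, deleted with empty vector, GATA2 and 9aa-Ins. At -9.0 kb 8 libraries had a peak, none of them with GATA2, and at +12.9 kb in the 3' untranslated region 9 libraries had one, with scores up to 52 and overlap in every comparison. One faint interval outside the naming rule, at -11.9 kb (chr6:88181892-88182059), was listed in 4 of 4 9aa-Ins libraries and 0 of the other 12 before the cut and in 0 libraries after it.

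Peaks over the coding exons formed a separate pattern. Among the equal-length lists, peaks covered 0% of the 1440 coding bases in all 4 hi-77+/+ empty libraries and 7.64%, 8.33%, 8.75% and 8.06% in hi-77-/- empty. Coverage was 46.5%, 54.6%, 49% and 63.2% with GATA2, and 99.6%, 98.8%, 98.8% and 89.9% with 9aa-Ins. The 4 groups did not overlap in any of the 4 comparisons (exact permutation p = 0.0286 each), with differences of 8.19, 45.1, 88.6 and 43.5 percentage points between genotypes, with GATA2, with the variant, and between the variant and GATA2. With peaks of -log10 q of at least 5, the GATA2 difference was 24.5 percentage points. In hi-77-/- empty the covered bases all lay in exon 5 (chr6:88204583-88204708), where peaks covered 93.7% ± 5.34 (SD, n = 4) and scores over the wider region were 33.5, 31.1, 21 and 55.9. In the GATA2 libraries exon 5 was covered in 1 of 4 and exon 3 (chr6:88200219-88200860), the longest coding stretch, in 4 of 4 (49.0% ± 7.29). With all deposited peaks, exon 5 was covered in 3 of 4 GATA2 libraries, at a mean of 65.5%. With 9aa-Ins, exons 2 to 4 were covered at 97.1% ± 4.3.

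**Figure D4:**
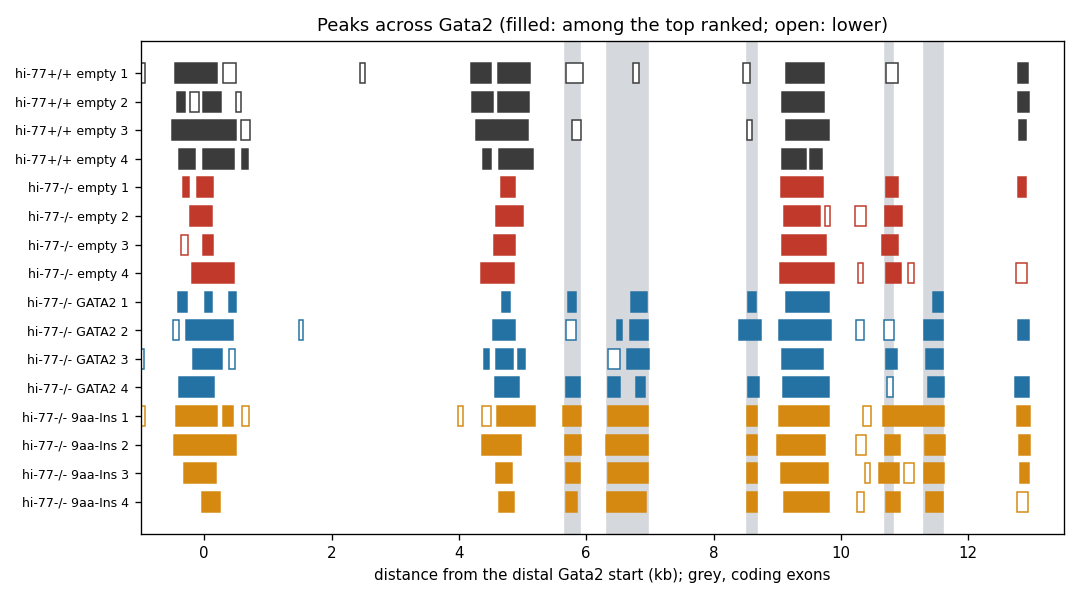
Peaks of each library (rows) across Gata2, by distance from the distal start (horizontal axis). Filled bars are among the 49925 most significant peaks and open bars are lower; grey bands are the coding exons. Peaks fill the grey bands in the 4 hi-77-/- 9aa-Ins rows and parts of them in the hi-77-/- GATA2 rows, while peaks near 0, 4.7 and 9.4 kb stand in all 16 rows.

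At exons 2 to 4, these peaks stayed within or close to the exons. In the GATA2 and 9aa-Ins libraries together, 25 deposited peaks touched exons 2 to 4, and 48 of their 50 ends lay inside the exon or at most 50 bp beyond it. With 9aa-Ins, 24 of 24 ends lay within 50 bp of an exon edge, against 14 of 26 with GATA2, where 10 ends lay deeper inside the exons, mainly in exon 3. The 150 bp on either side of these exons were covered at 7.2% ± 10.1 (SD, n = 4) with GATA2 and 4.78% ± 3.04 with 9aa-Ins. A cDNA holds the coding exons joined without introns, and the vectors of both groups carry one. Reads from the vector and reads from the chromosomal exons cannot be told apart in these files, so no accessibility of the endogenous exons is read from the difference. The same exons also had deposited peaks in 2 empty-vector libraries, hi-77+/+ empty replicates 1 and 3, which covered 32.6% and 13.4% of the coding bases below the cut. With all deposited peaks, the deletion difference was therefore -3.32 percentage points and the genotypes overlapped. The source of these exon peaks was not tested.

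**Figure D5:**
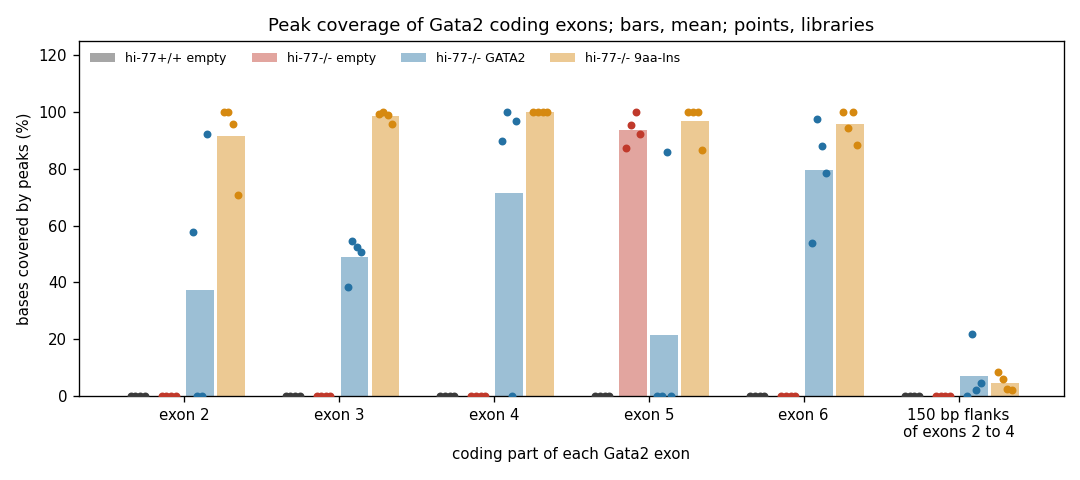
Percentage of the coding bases of Gata2 exons 2 to 6, and of the 150 bp flanks of exons 2 to 4, covered by peaks of the equal-length lists (vertical axis) in each group (color). Bars are means and points are the 4 libraries. With 9aa-Ins every exon averages over 91% and the flanks 4.78%; exon 5 alone is covered in hi-77-/- empty.

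Outside the coding exons, the locus as a whole changed less. Peaks covered 10790 ± 1464 bp (SD, n = 4) in hi-77+/+ empty, 8922 ± 848 in hi-77-/- empty, 9632 ± 1660 with GATA2 and 10908 ± 1464 with 9aa-Ins. None of the 4 comparisons was without overlap (exact permutation p = 0.0571 for genotype, 0.486 with GATA2, 0.0857 with 9aa-Ins and 0.314 between the vectors). The deletion comparison separated when hi-77-/- empty replicate 4 (-2282 bp) or hi-77+/+ empty replicate 4 (-2464 bp) was left out, and the 9aa-Ins comparison when hi-77-/- empty replicate 4 was (2401 bp). Per library, the locus held 20 to 26 peaks of the equal-length lists in hi-77+/+ empty, 19 to 21 in hi-77-/- empty, 25 to 28 with GATA2 and 23 to 27 with 9aa-Ins, coding exons included.

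The order of the sites by mean rank score differed between groups. In hi-77+/+ empty it was -77 (91.7), -3.9 (83), +9.5 (63.2) and the promoter (47.3), with the last pair overlapping in range. In hi-77-/- empty it was +9.5 (75.3), -3.9 (70.9), -48 (57.3), the promoter (39.1) and -77 (10.7), and each neighboring pair overlapped. With GATA2, -3.9 (88.5) led and +9.5 (78.9) followed with overlapping ranges, while with 9aa-Ins +9.5 (83.3) led and its range lay above that of -3.9 (70.5). The order within groups was not tested.

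Elsewhere in the genome, the protein-coding promoters whose 16 scores were closest to those of the Gata2 promoter were Nckap1, Ankrd63, Nppb, Pura and Gm20532, with root mean square differences of 9.79, 10.8, 12.1, 12.1 and 13.3 rank score points. For the -77 site, close windows outside the locus lay nearest to the starts of Ackr3 (10.2), Cav2 (10.4), Cpe (11.2) and Tmem88b (11.3). The Ackr3 window averaged 83.6 in hi-77+/+ empty and 10, 8.26 and 3.49 in the deleted groups with empty vector, GATA2 and 9aa-Ins. These are descriptions over 16 libraries and were not tested.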

How the data were processed

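ATAC-Seq was done on 16 libraries, 4 in each of 4 groups taken from the titles. Per the labels, the authors trimmed reads with Trim Galore 0.4.1, aligned them with Bowtie2 2.2.5 to mm10, processed duplicates with Picard 2.26.0 and called peaks with MACS2, one list per library. In each deposited list the authors gave a score, a fold enrichment ratio, and p-values and q-values as -log10. Per the study's methods, duplicates were removed, uniquely mapped reads were kept and offset on each strand for the Tn5 cut, and peaks were called without a shifting model. For the 3 deleted groups the methods also name calling with no local background, which leaves peaks measured against the genome average. Which of these calls the deposited lists hold is not stated, and read depth is unknown.

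Chromosomes 1 to 19, X and Y entered. Peaks were ranked by -log10 p within a library, and each list was cut to 49925, the length of the shortest. Merged regions (overlap of at least 1 bp) and windows of 1 kb were given the rank score of their best peak. Exact two-sided permutation tests were applied to single sites and to coverage, and limma 3.58.1 (R 4.3.3) to windows with a peak in at least 2 of 16 libraries, all groups in one fit, with Benjamini-Hochberg adjustment over all windows. The limma step was tested on simulated data. Other steps used Python 3.11.15. Annotation was GENCODE M21 and RefSeq on GRCm38, and no peak ran past a chromosome end of that build. The genes and regions named are the 7 sites, every region of the locus with a peak in at least 4 libraries, neighboring gene promoters, and the 5 promoters and 5 windows with the smallest root mean square difference. A few of these windows and promoters are not reported here. Members and lists were chosen with earlier results of these data known. Alternatives were lists of 24962 peaks, all deposited peaks, ranking by fold enrichment, peaks under 1 kb, summits only, windows of 250 bp to each side, -log10 q of at least 5, no filter, a replicate block and leaving out each library.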

Additional observations from a re-analysis of the deposited data

Results flagged for a closer look

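In 3 of the 25 groups of 4 libraries with any spread, 1 library stood far from the other 3 by Dixon's ratio, which chance alone exceeds in about 1 in 20 groups. At the -77 site, hi-77-/- empty replicate 4 had a rank score of 42.9, against 0 in the other 3. At the +9.5 site, hi-77+/+ empty replicate 2 had 51.2, against 66.7 to 67.6. Peaks of hi-77-/- 9aa-Ins replicate 4 covered 89.9% of the coding bases, against 98.8% to 99.6% in the other 3 libraries of that group.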

How the results depend on the processing

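With peaks of 1 kb or more removed, the deletion difference at the -77 site was 12.5 in place of -81.0, since the intact peaks there, 1196 to 1414 bp wide, were all removed. Ranking all deposited peaks turned the deletion difference in coding exon coverage to -3.32 percentage points and the promoter difference between the variant and GATA2 to 6.68, and the cause was not tested. The count of the 7 sites without overlap was 1 with lists of 24962 peaks for GATA2 and for the variant against GATA2. It was 1 with all deposited peaks for the variant against empty vector and against GATA2, and 1 with peaks under 1 kb for the former. Over all windows, ranking all deposited peaks moved the calls from 4296 to 8083 for 9aa-Ins and from 14530 to 24458 for it against GATA2. In the 4 comparisons in the order of the report, higher and lower calls numbered 11874 and 11122, 5133 and 7103, 3239 and 1057, and 9503 and 5027 in the main fit, and 7621 and 17283, 3552 and 7568, 7959 and 124, and 22070 and 2388 with all deposited peaks.

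Leaving out each library gave -91.7 to -77.4 at the -77 site between genotypes. In the same order of comparisons, sites without overlap numbered 4 to 4, 2 to 2, 0 to 2 and 3 to 3. Coding exon coverage differed by 8.01 to 8.38, 41.8 to 47.4, 87.6 to 90.9 and 41.2 to 46.7 percentage points, and coverage outside coding exons by -2464 to -1279, 209 to 1467, 1401 to 2413 and 520 to 1777 bp. When libraries of the groups compared were left out, windows called numbered 20027 to 22703, 10630 to 11573, 3377 to 4020 and 12566 to 13998. Leaving out a library of another group, which shares the fit, could give counts outside these ranges. For the deletion it was 23075 without hi-77-/- GATA2 replicate 1.

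Replicate numbers did not pair the libraries: deviations of same-numbered libraries correlated at -0.0442 to 0.0449. With the replicate block, an exact sign-flip test cannot go below p = 0.125, so the -77 difference of -81.0 and the coding exon differences of 8.19, 45.1, 88.6 and 43.5 could not pass it. limma with the replicate block called 21962, 11620, 3831 and 13822 windows, within 1.5 times of the main counts. Peak lists give no read depth, so a site without a peak may be accessible below the caller's threshold.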
